A study of Homo sapiens with 6 samples.

Results

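Genes of the extracellular matrix and of cell adhesion were examined in the human hepatoma line HuH7 after depletion of the long noncoding RNA EGOT. The genes were taken by symbol from the array's platform annotation, as symbols that begin with COL and a digit, LAMA, LAMB, LAMC, ITGA, ITGB or CDH and a digit, together with FN1, NID1, NID2, HSPG2, ICAM1 and VCAM1. This gave 16 of the 14812 genes tested, each read by 1 probe set. The prefixes promise collagens, laminins, integrins and cadherins, but the symbols found hold 0 laminin chains and 0 integrin chains, which were not analysed here. They comprise 5 matrix genes (FN1, HSPG2, NID1, NID2 and COL26A1), 4 genes of cell-surface adhesion proteins (ICAM1, VCAM1, CDH23 and CDH26), 3 genes of proteins that bind integrin beta chains or were named for it (ITGB1BP1, ITGB1BP2 and ITGB3BP) and 4 antisense RNAs (COL18A1-AS1, COL18A1-AS2, COL4A2-AS1 and ITGB2-AS1). They are called the matrix and adhesion genes here.

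The series holds 3 arrays of cells given a gapmer against EGOT and 3 of cells given a control gapmer. Gapmers are antisense oligonucleotides whose central DNA stretch lets RNase H cut the RNA they pair with. Every culture also received a plasmid for PKR, a kinase that senses double-stranded RNA, together with poly I:C, which mimics such RNA, to induce EGOT. Each well was given 50 pmol of gapmer and 0.3 µg of the PKR plasmid, and RNA was taken 36 hours after transfection. The design has 1 gapmer against EGOT, 1 control gapmer and no cells without PKR and poly I:C, and separate cultures are not stated for the replicates, so the p-values reflect only how these samples spread, which may be technical. The sequences that the labels give for the gapmers are shown because they define the groups. The EGOT sequence is recorded as the gapmer target, and whether it is written as the gapmer or as its target stretch was not checked.
EGOT gapmer: agagacacttagaaga
Control gapmer: aacacgtctatacgc

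In a basement membrane, networks of laminin and type IV collagen are joined by nidogens and by perlecan, the heparan sulfate proteoglycan encoded by HSPG2. Fibronectin, encoded by FN1, is secreted in large amounts by hepatocytes and binds both integrins and collagens. ICAM1 and VCAM1 are immunoglobulin-family adhesion molecules to which leukocyte integrins bind, and both genes are known to be induced by cytokines through NF-kB. Cadherins join neighbouring cells in a calcium-dependent manner.

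The promoter sequences of the 3 genes that passed the test, HSPG2, NID1 and ICAM1, and of VCAM1, the like gene of ICAM1, are shown because the log2 differences of ICAM1 and VCAM1 had opposite signs. Each is the 250 bases before the gene's start from RefSeq, build GRCh38.p14, written 5′ to 3′ on the gene's strand. Capitals mark matches on either strand to an NF-kB motif (GGNNNTTCC), a GAS motif for STAT factors (TTCNNNGAA) or the core of an ISRE for interferon regulatory factors (TTCNNTTTC). No 2 of the matches shown overlap.
HSPG2, chr1:21937311-21937560, minus strand: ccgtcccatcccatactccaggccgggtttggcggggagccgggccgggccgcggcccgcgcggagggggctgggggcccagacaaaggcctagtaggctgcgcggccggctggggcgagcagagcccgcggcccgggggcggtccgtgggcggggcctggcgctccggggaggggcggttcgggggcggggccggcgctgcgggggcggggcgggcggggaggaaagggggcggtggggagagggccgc
NID1, chr1:236065091-236065340, minus strand: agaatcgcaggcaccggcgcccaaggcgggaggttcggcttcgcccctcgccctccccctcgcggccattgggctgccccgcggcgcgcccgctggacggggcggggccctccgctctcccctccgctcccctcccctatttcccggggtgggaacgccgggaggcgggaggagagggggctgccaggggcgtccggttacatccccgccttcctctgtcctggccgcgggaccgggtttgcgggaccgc
ICAM1, chr19:10270870-10271119, plus strand: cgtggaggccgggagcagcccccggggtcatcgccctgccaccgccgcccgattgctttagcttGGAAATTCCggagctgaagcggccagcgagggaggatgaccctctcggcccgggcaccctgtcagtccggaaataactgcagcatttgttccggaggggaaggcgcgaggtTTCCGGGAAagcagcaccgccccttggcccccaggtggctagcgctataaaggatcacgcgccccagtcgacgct
VCAM1, chr1:100719492-100719741, plus strand: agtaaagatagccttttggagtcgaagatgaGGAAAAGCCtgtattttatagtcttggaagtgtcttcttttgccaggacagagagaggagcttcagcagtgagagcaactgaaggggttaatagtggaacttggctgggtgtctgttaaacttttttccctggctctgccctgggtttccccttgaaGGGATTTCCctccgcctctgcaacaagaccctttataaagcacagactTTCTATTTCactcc

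The windows of HSPG2 and NID1 held 0 matches to these motifs. ICAM1 held 1 NF-kB match, GGAAATTCC, which begins 186 bases before the start, and 1 GAS match, TTCCGGGAA, which begins 75 bases before it. VCAM1 held 2 NF-kB matches, beginning 219 and 62 bases before the start, and 1 ISRE core match, beginning 14 bases before it. Among 27303 promoter windows of this length, 17.1% held the NF-kB motif, 6.78% the GAS motif and 7.06% the ISRE core. The GC box GGGCGG, read on both strands, occurred 8 times in the HSPG2 window, 2 times in ICAM1, 1 time in NID1 and 0 times in VCAM1, and 42.3% of all windows held it. G and C made up 82.8% of the HSPG2 window, 76.4% of that of NID1, 66.0% of that of ICAM1 and 46.0% of that of VCAM1. A match describes the letters of these windows and was not measured as a bound site.

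The arrays matched their labels for the targeted RNA and, by hepatocyte and hepatoma markers, for the cell line. EGOT read 4.91, 4.90 and 4.69 in the EGOT gapmer arrays, against 6.29, 6.79 and 6.71 in the control gapmer arrays, on the log2 scale of the array values (log2 difference -1.76, standard error 0.142, limma adjusted p = 0.0076). Of 17 measured hepatocyte and hepatoma markers, all 17 lay above the median of all probe sets on every array, with albumin, ALB, at 13.67 ± 0.0312 in the EGOT gapmer arrays and 13.68 ± 0.0228 in the control gapmer arrays (SD, n = 3 each). APOA1 was the 1 of these 17 that passed, higher by 0.36 on the log2 scale (limma adjusted p = 0.0406). Of the 5 stellate cell and fibroblast markers 3 lay below that median on every array, among them DCN, and of 8 endothelial markers 6 did. Of 6 measured leukocyte markers, 4 lay above that median on every array and 0 lay below it on every array. For scale, 10349 of the 14812 genes tested had a mean level above the median of all probe sets. Over all genes, 1245 of 14812 passed the test (8.41%), 770 higher (5.2%) and 475 lower (3.21%). The correlation of arrays over all probe sets was 0.987 to 0.989 within the EGOT gapmer group, 0.991 to 0.992 within the control gapmer group and 0.985 to 0.988 between the groups. EGOT gapmer replicate 2 had the highest array median, at 5.23, while the other 5 lay between 5.08 and 5.15. The number of arrays limits the precision of every value.

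Among the matrix and adhesion genes HSPG2 and NID1, which encode linkers of the basement membrane, fell, and so did ICAM1, which encodes an adhesion molecule for leukocytes. By limma 3 of the 16 fell (18.75%, where 3.21% of all genes did), 0 rose (where 5.2% of all genes did) and 13 did not pass. At an unadjusted p under 0.05 there were 5 lower and 2 higher, where 25% of all genes had such a p, 8.79% lower and 16.2% higher. After quantile normalization or cyclic loess there were 5 lower and 0 higher at that p. In RNA of whole cultures fewer cells of a kind and less RNA per cell cannot be told apart. The median log2 difference over the 16 was -0.06, where that over all genes was 0.04. The groups did not overlap in 7 of the 16, a share of 43.75% that stands beside 31.7% of all genes. They were higher with the EGOT gapmer in 2, where 20.2% of all genes were, and lower in 5, where 11.5% were. The plot of levels by array shows every value.

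**Figure D1:**
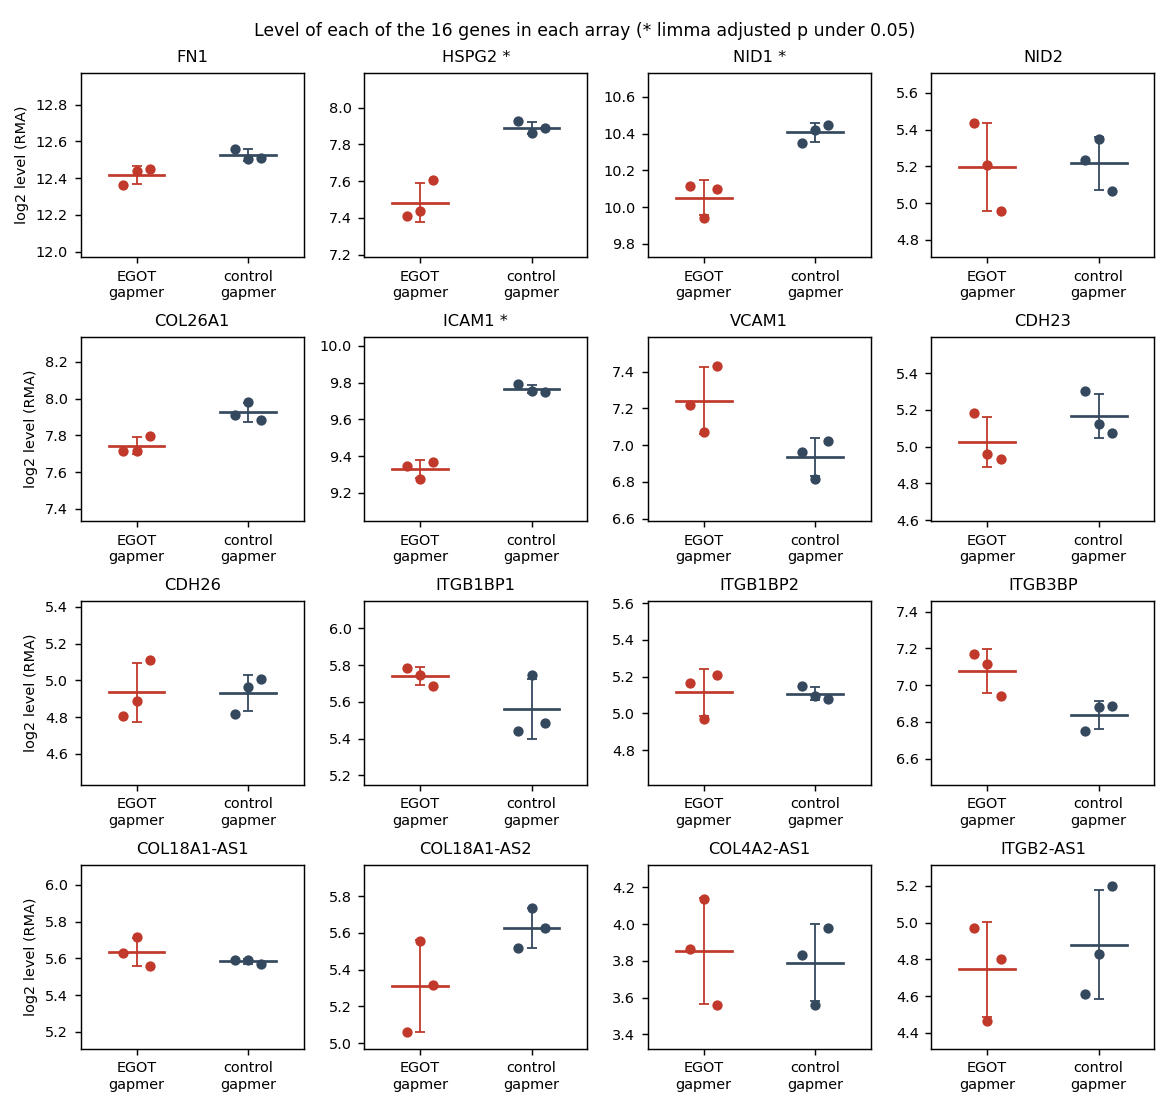
Log2 level (RMA) of each of the 16 matrix and adhesion genes in the 3 EGOT gapmer arrays (red, left) and the 3 control gapmer arrays (blue, right), with the mean and SD of each group. Every panel spans 1 log2 unit. In HSPG2, NID1 and ICAM1, starred, all EGOT gapmer points lie below all control gapmer points.

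All 5 matrix genes had log2 differences below 0, 2 of them fell, and in 4 of them the groups did not overlap. HSPG2, which encodes perlecan, read 7.41, 7.43 and 7.61 in the EGOT gapmer arrays, against 7.92, 7.86 and 7.89 in the control gapmer arrays. Its highest EGOT gapmer value, in replicate 3, stayed below its lowest control gapmer value. HSPG2 averaged 7.48 ± 0.109 in EGOT gapmer arrays and 7.89 ± 0.0326 in control gapmer arrays (SD, n = 3 each), so its level fell by 24.6% (log2 difference -0.41, 95% interval -0.59 to -0.22, limma adjusted p = 0.0293).

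NID1, which encodes nidogen-1, the protein that joins laminin to type IV collagen and to perlecan, fell likewise. It read 10.11, 9.94 and 10.10 in the EGOT gapmer arrays, against 10.35, 10.42 and 10.45 in the control gapmer arrays. The groups were set apart with no overlap, and EGOT gapmer replicate 2 was the lowest array. The level of NID1 fell by 21.8% (log2 difference -0.36, 95% interval -0.54 to -0.17, limma adjusted p = 0.039). NID2, the gene of the related nidogen-2, read 5.43, 5.21 and 4.95 in the EGOT gapmer arrays, against 5.24, 5.35 and 5.06 in the control gapmer arrays. These values interleave, and the log2 difference of -0.018 did not pass (95% interval -0.34 to 0.30, limma adjusted p = 0.953). NID2 lay above the array median in 3 of 6 arrays, where background takes more of the signal, and whether NID1 and NID2 differ in their response was not tested.

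FN1 did not pass. It read 12.36, 12.44 and 12.45 in the EGOT gapmer arrays, against 12.56, 12.50 and 12.51 in the control gapmer arrays. All EGOT gapmer values were the lower ones, with a log2 difference of -0.11 (95% interval -0.26 to 0.05, limma adjusted p = 0.382). COL26A1, which encodes an emilin-domain collagen, was the 1 collagen gene found, and read 7.72, 7.72 and 7.80 in the EGOT gapmer arrays, against 7.91, 7.98 and 7.88 in the control gapmer arrays. The groups did not overlap either, and the log2 difference of -0.18 did not pass (95% interval -0.35 to -0.02, limma adjusted p = 0.157).

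Of the 4 surface adhesion genes, ICAM1 fell and the other 3 did not pass. ICAM1, the ligand of leukocyte beta-2 integrins, read 9.35, 9.28 and 9.37 in the EGOT gapmer arrays, against 9.79, 9.75 and 9.75 in the control gapmer arrays. The replicates of each group lay close together and the groups were well apart. ICAM1 averaged 9.33 ± 0.049 in EGOT gapmer arrays and 9.77 ± 0.023 in control gapmer arrays (SD, n = 3 each), and its level fell by 26.0% (log2 difference -0.43, standard error 0.0666, 95% interval -0.59 to -0.28, limma adjusted p = 0.0172).

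VCAM1, the ligand of alpha-4 integrins, stood on the other side. It read 7.22, 7.07 and 7.43 in the EGOT gapmer arrays, against 6.96, 6.82 and 7.02 in the control gapmer arrays. All EGOT gapmer values were the higher ones, though EGOT gapmer replicate 2 lay just above control gapmer replicate 3. The log2 difference of 0.31 did not pass (95% interval 0.05 to 0.57, limma adjusted p = 0.134). It passed in 1 of 14 alternative settings, with a variance trend and a robust prior (limma adjusted p = 0.0482). Its unadjusted limma p was 0.0527 after quantile normalization and 0.0562 after cyclic loess. The 95% intervals of ICAM1 and VCAM1 do not overlap. The difference between these effects was not tested.

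The cadherin genes gave no call. CDH23, known for the tip links of inner ear hair cells, read 5.18, 4.96 and 4.93 in the EGOT gapmer arrays, against 5.30, 5.12 and 5.08 in the control gapmer arrays (log2 difference -0.14, 95% interval -0.38 to 0.09, limma adjusted p = 0.443). CDH26 read 4.80, 4.89 and 5.11 in the EGOT gapmer arrays, against 4.82, 4.96 and 5.01 in the control gapmer arrays (log2 difference 0.0051, 95% interval -0.23 to 0.24, limma adjusted p = 0.983). The groups overlapped in both genes, and both were dim: CDH23 lay above the array median in 2 of 6 arrays and CDH26 in 1, so that a small change could be missed.

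Of 6 measured leukocyte markers 2 were higher in the same arrays. CD68 was higher by 1.06 on the log2 scale (limma adjusted p = 0.0081) and LYZ by 0.57 (limma adjusted p = 0.0171; 1.13 over the mean of its 2 probe sets), whereas CD14, CD2, CSF1R and NKG7 did not pass. The summed linear level of the 6 was 1440 to 1473 in the EGOT gapmer arrays and 890.0 to 940.4 in the control gapmer arrays. That sum mostly reflects CD68 and LYZ, which averaged 9.29 and 9.34 on the log2 scale in the EGOT gapmer arrays. There CD14, CD2, CSF1R and NKG7 averaged 5.32 to 5.58. All samples are labelled as the HuH7 line. Any part of leukocytes in the values of ICAM1 and VCAM1, which leukocytes can also express, was not tested.

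The 3 integrin-binding genes had log2 differences above 0, and by limma 0 passed, with ITGB3BP the 1 at an unadjusted p under 0.05. ITGB3BP, first described as a binding partner of integrin beta-3 and also known as the centromere protein CENP-R, read 7.17, 7.12 and 6.94 in the EGOT gapmer arrays, against 6.75, 6.88 and 6.89 in the control gapmer arrays. The EGOT gapmer values were all higher, and the log2 difference of 0.24 missed the threshold (95% interval 0.03 to 0.44, limma adjusted p = 0.143). ITGB1BP1, whose product ICAP-1 binds the cytoplasmic tail of integrin beta-1, read 5.78, 5.75 and 5.69 in the EGOT gapmer arrays, against 5.44, 5.75 and 5.49 in the control gapmer arrays. Control gapmer replicate 2 lay among the EGOT gapmer values, and the log2 difference of 0.18 did not pass (limma adjusted p = 0.302). ITGB1BP2, which encodes melusin of striated muscle, read 5.17, 4.97 and 5.21 in the EGOT gapmer arrays, against 5.15, 5.10 and 5.08 in the control gapmer arrays (log2 difference 0.0070, limma adjusted p = 0.972).

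None of the 4 antisense RNAs passed by limma, and 1 had an unadjusted p under 0.05. That was COL18A1-AS2, which read 5.06, 5.56 and 5.32 in the EGOT gapmer arrays, against 5.52, 5.74 and 5.63 in the control gapmer arrays. EGOT gapmer replicate 2 lay within the control gapmer range, and the log2 difference of -0.32 did not pass (95% interval -0.63 to -0.01, limma adjusted p = 0.194). COL18A1-AS1 read 5.63, 5.71 and 5.56 in the EGOT gapmer arrays, against 5.59, 5.59 and 5.57 in the control gapmer arrays. COL4A2-AS1 ran from 3.56 to 4.13 in the EGOT gapmer arrays, against 3.56 to 3.98 in the control gapmer arrays, below the array median on all 6. ITGB2-AS1 ran from 4.46 to 4.97 in the EGOT gapmer arrays, against 4.61 to 5.20 in the control gapmer arrays. The groups overlapped in all 4. Levels of the collagen and integrin genes opposite these RNAs were not analysed here.

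HSPG2 and NID1 did not pass once a trend on gene length was removed, and ICAM1 did. Among 11911 protein-coding genes, long genes tended to be lower with the EGOT gapmer: the median log2 difference was 0.08 in 2980 genes that span under 10 kb and -0.09 in 2113 genes that span 100 kb or more, and 0.839% and 13.2% of these fell. HSPG2 spans 115 kb and NID1 89.3 kb, whereas ICAM1 spans 15.5 kb. With the trend on span removed from each array, 1 of the 16 genes passed, ICAM1, which fell (log2 difference -0.46, limma adjusted p = 0.0214). Of all genes 6.05% passed with that trend removed, 4.6% higher and 1.44% lower. HSPG2 was then at -0.28 (limma adjusted p = 0.0778) and NID1 at -0.26 (limma adjusted p = 0.0856), both still below 0. This removal keeps each array's level at the median of its trend, and the median log2 difference over all genes was then 0.065, where it was 0.037 as deposited. In 2 further fits, chosen after the data were seen, HSPG2 had limma adjusted p-values of 0.0669 at -0.31 with the median of all genes kept on each array and 0.0590 at -0.35 with the whole trend subtracted. NID1 had limma adjusted p-values of 0.0754 at -0.29 and 0.0806 at -0.33 in these fits, and ICAM1 passed in both (0.0218 at -0.49 and 0.0218 at -0.53). COL26A1, of 197 kb, was at -0.0075 (limma adjusted p = 0.960). CDH23, the longest of the 16 at 419 kb, had a value of 0.080 (limma adjusted p = 0.676). ITGB3BP, of 88.4 kb, had a larger difference, 0.33, that did not pass (limma adjusted p = 0.0707). Over the 12 protein-coding members the correlation of the difference with log10 span was -0.26 by Pearson's r and -0.38 by Spearman's rho, values that describe genes measured on the same 6 arrays.

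**Figure D2:**
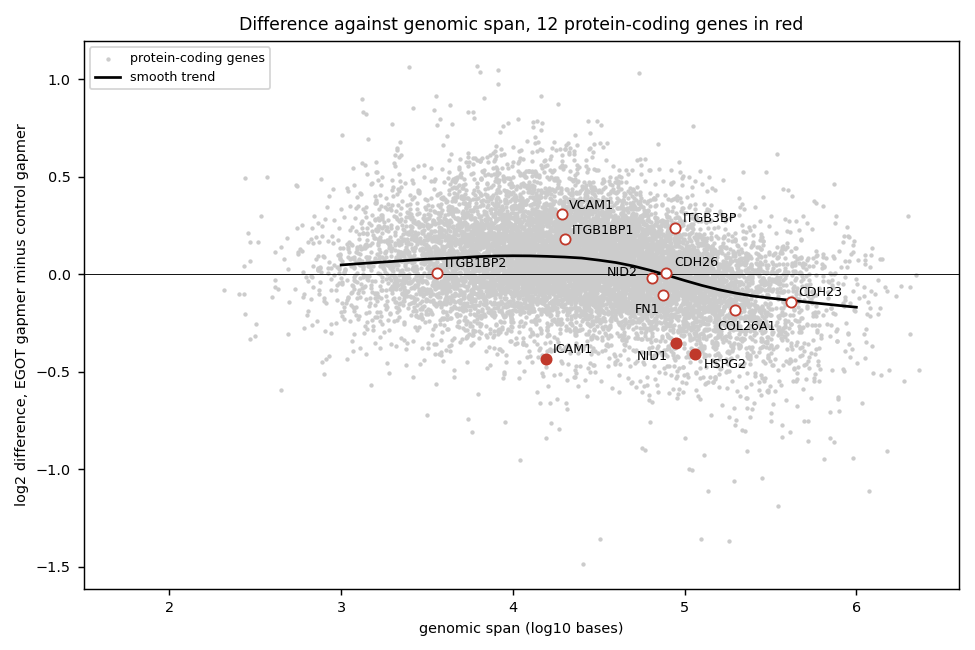
Log2 difference (EGOT gapmer minus control gapmer) against genomic span (log10 bases) for protein-coding genes (grey) with their smooth trend (black) and the 12 protein-coding matrix and adhesion genes (red, filled where the limma adjusted p is under 0.05). The trend runs from above 0 among short genes to below 0 among long ones. ICAM1, at -0.43, NID1, at -0.36, and HSPG2, at -0.41, all lie far under the trend of genes of their length. In the stretch that holds NID1 and HSPG2 the trend is slightly below 0, at -0.0060 to -0.058.

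**Figure D3:**
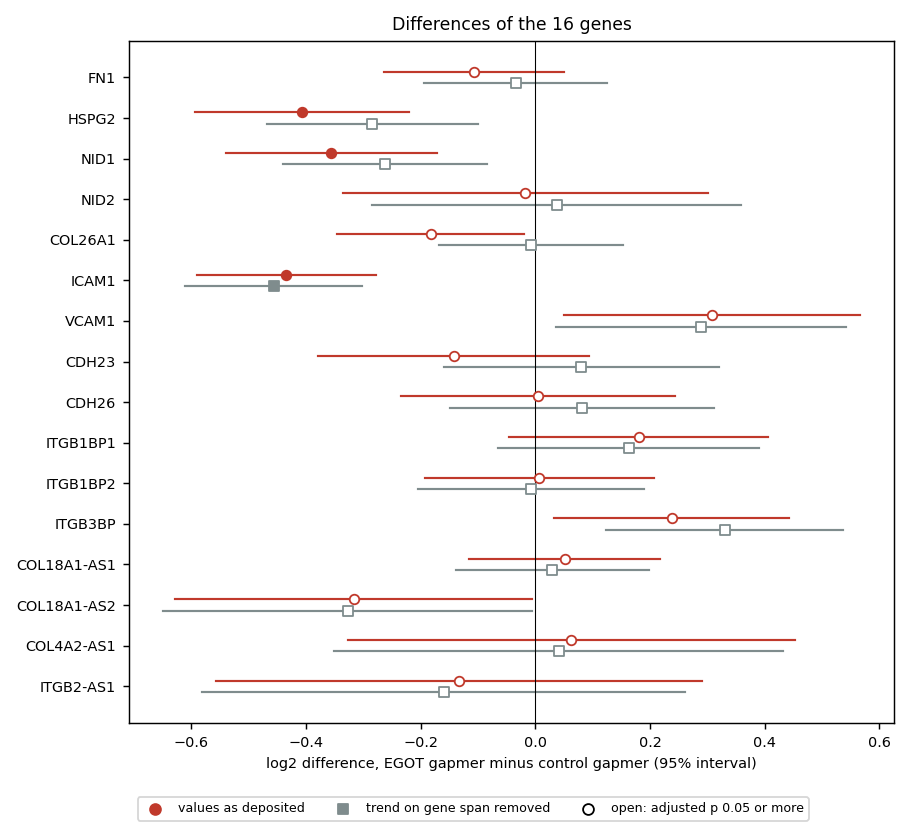
Log2 difference of each gene (EGOT gapmer minus control gapmer) with its 95% interval, from the values as deposited (red circles) and after removal of the span trend (grey squares). Filled symbols have a limma adjusted p under 0.05: HSPG2, NID1 and ICAM1 with the deposited values, and ICAM1 with the trend removed.

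Leaving out single arrays kept the direction of these 3 genes and ended most calls, here and over all genes. Of all genes 9 to 579 passed in these fits, where 1245 passed with all 6 arrays. HSPG2 and NID1 did not pass when any 1 of the 6 arrays was left out, with log2 differences of -0.47 to -0.37 and limma adjusted p-values of 0.0537 to 0.101 for HSPG2, and log2 differences of -0.39 to -0.30 and limma adjusted p-values of 0.0659 to 0.133 for NID1. ICAM1 passed without EGOT gapmer replicate 1 (limma adjusted p = 0.0415) or 2 (limma adjusted p = 0.0441). It did not pass without EGOT gapmer replicate 3 (limma adjusted p = 0.0555) or without control gapmer replicate 1, 2 or 3 (limma adjusted p = 0.0717, 0.0804 and 0.0742), with log2 differences of -0.45 to -0.41 over the 6 fits.

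**Figure D4:**
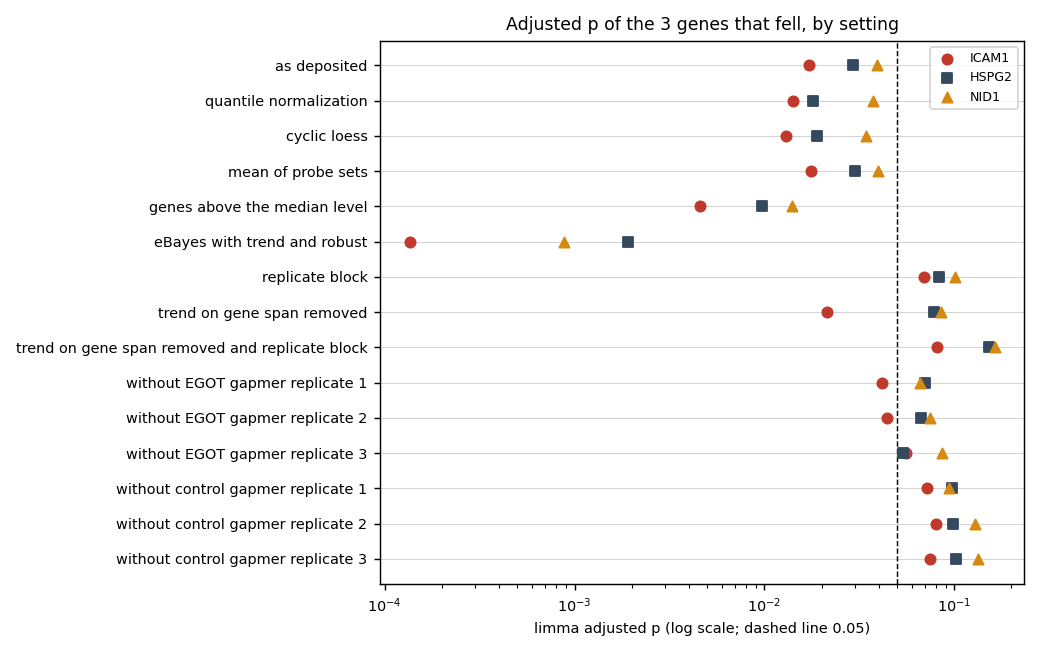
Limma adjusted p (log axis) of ICAM1, HSPG2 and NID1 in the values as deposited and in 14 alternative settings, with a dashed line at 0.05. All 3 lie left of the line under 5 alternatives, ICAM1 alone under 3 more, and none under the other 6.

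Of the enzymes that mature collagens TLL1 and P3H2 fell. Of 15 measured members of a list of collagen maturation and cross-linking genes, 2 fell and 0 rose, where 3.21% and 5.2% of all genes did, with a median log2 difference of -0.06, where that of all genes was 0.04. TLL1, a tolloid-like protease that trims procollagens, read 6.75, 6.36 and 6.43 in the EGOT gapmer arrays, against 7.47, 7.35 and 7.43 in the control gapmer arrays. Its fall of 0.91 on the log2 scale was the largest in the related lists (limma adjusted p = 0.0115). P3H2, a prolyl 3-hydroxylase that acts on basement membrane collagen, fell by 0.67 (limma adjusted p = 0.0162). The lysyl oxidase genes LOX and LOXL1 to LOXL4, which cross-link collagen, gave no call.

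Among other secreted matrix genes FRAS1, NTN4, LTBP1 and AGRN fell. Of 32 measured matrix glycoprotein and proteoglycan genes, 4 fell and 0 rose, where 3.21% and 5.2% of all genes did. Of the 32, 25 had differences below 0, where 42.2% of all genes did, and the median was -0.17, where that of all genes was 0.04. FRAS1, a basement membrane protein gene, fell by 0.59 on the log2 scale (limma adjusted p = 0.012). NTN4, whose product netrin-4 binds laminin, fell by 0.56 (limma adjusted p = 0.022) and LTBP1, which holds latent TGF-beta in the matrix, by 0.54 (limma adjusted p = 0.0153). AGRN, the gene of agrin, like perlecan a heparan sulfate proteoglycan of basement membranes, fell by 0.33 (limma adjusted p = 0.0368). It read 7.59, 7.54 and 7.66 in the EGOT gapmer arrays, against 7.97, 7.94 and 7.88 in the control gapmer arrays, with no overlap. AGRN spans 36.0 kb, and with the trend on span removed it still passed, at -0.32 (limma adjusted p = 0.0462), as did FRAS1 at -0.36 (limma adjusted p = 0.0431) and NTN4 at -0.42 (limma adjusted p = 0.0473), while LTBP1 did not (-0.31, limma adjusted p = 0.058). With that trend removed 20 of the 32 were below 0, where 36.2% of all genes were, and the median was -0.04, where that of all genes was 0.065.

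Genes of matrix proteases and their inhibitors moved both ways. Of 21 measured, 2 rose and 2 fell, where 5.2% and 3.21% of all genes did, with a median of 0.01. The metalloproteinase inhibitor gene TIMP4 read 6.03, 6.18 and 6.20 in the EGOT gapmer arrays, against 5.19, 5.25 and 5.48 in the control gapmer arrays, a rise of 0.83 on the log2 scale (limma adjusted p = 0.0108). TIMP1 rose by 0.61 (limma adjusted p = 0.0304). Those 2 were the only inhibitor genes of the list that passed, and the genes that fell were both proteases: MMP16, a membrane-type metalloproteinase, by 0.45 (limma adjusted p = 0.0318) and ADAM10, which sheds cadherins and other surface proteins, by 0.32 (limma adjusted p = 0.0362). With the trend on span removed TIMP4 and TIMP1 passed, though TIMP1 did not with the median of all genes kept (0.57, limma adjusted p = 0.0521), whereas MMP16 (-0.25, limma adjusted p = 0.148) and ADAM10 (-0.16, limma adjusted p = 0.190) did not.

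Focal adhesion proteins link integrins to actin inside the cell. Of 26 measured focal adhesion genes, 2 rose and 1 fell, where 5.2% and 3.21% of all genes did, with a median of -0.06. VASP, an actin regulator, rose by 0.35 (limma adjusted p = 0.0384) and FERMT2, which encodes the integrin activator kindlin-2, by 0.28 (limma adjusted p = 0.0462), both on the log2 scale. TLN2, the gene of talin-2, fell by 0.51 (limma adjusted p = 0.017), and was at -0.28 with the trend on span removed (limma adjusted p = 0.0782). After quantile normalization or cyclic loess neither VASP nor FERMT2 passed. Of 20 measured adherens junction and desmosome genes, 3 fell and 0 rose, where 3.21% and 5.2% of all genes did, with a median of -0.11. PKP4, a plakophilin-related armadillo protein gene, read 8.13, 8.25 and 8.13 in the EGOT gapmer arrays, against 8.96, 8.95 and 9.01 in the control gapmer arrays. It fell by 0.80 (limma adjusted p = 0.0081), and AJUBA, a LIM protein of adherens junctions, fell by 0.36 (limma adjusted p = 0.0304). The third was ADAM10, which is in both lists.

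At an unadjusted p under 0.05, collagen maturation genes had 1 gene higher and 4 lower. Matrix glycoproteins and proteoglycans had 0 higher and 12 lower, and adherens junction and desmosome genes 2 higher and 9 lower. Matrix proteases and their inhibitors had 2 higher and 2 lower, and focal adhesion genes 5 higher and 5 lower. Of all genes 16.2% were higher and 8.79% lower at that p. Across the 5 lists 15 genes passed, of which 11 passed with the trend on span removed. Of the 15, 9 passed without EGOT gapmer replicate 1, 9 without replicate 2 and 6 without replicate 3. Without control gapmer replicate 1 the 1 that passed was PKP4, and without control gapmer replicate 3 the 2 that passed were TIMP4 and PKP4. Without control gapmer replicate 2 none of the 15 did by limma (adjusted p 0.0562 to 0.133, and all 15 at an unadjusted p under 0.05). Calls over all genes numbered 9 to 579 in these fits, where 1245 genes passed with every array kept.

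**Figure D5:**
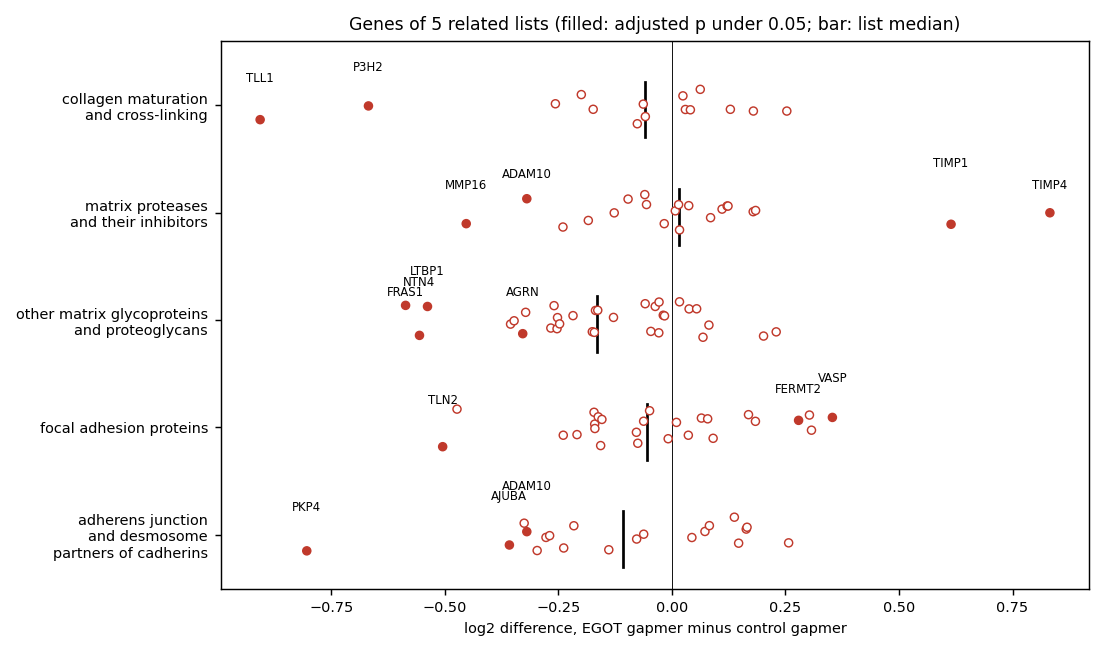
Log2 difference (EGOT gapmer minus control gapmer) of each measured gene in 5 lists related to matrix and adhesion. Each point is a gene, filled and named where its limma adjusted p is under 0.05, and the black bar is the list's median. TLL1, at -0.91, and TIMP4, at 0.83, are the outermost points.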

How the data were processed

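Gene expression was measured in 6 arrays of total RNA. The submitters' processing notes name RMA as the method by which the authors made the deposited log2 expression values. Its version, any filter and a genome build were not given in the sources used here. RMA is meant to set arrays to a shared distribution, so a change in total RNA per cell would not be seen. Dim values are compressed by background. The deposited arrays still differed in their medians, from 5.08 to 5.23. Quantile normalization of these values moved the median log2 difference over all genes from 0.037 to 0.0037.

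Of 44629 probe sets, 15835 had 1 gene symbol in GEO's platform annotation and were used. The other 28794 had no symbol or several, which were not counted apart. For each gene the probe set with the highest mean over the 6 arrays was used, which left 14812 genes. Differences, taken as EGOT gapmer minus control gapmer, were fitted in R 4.3.3 with limma 3.58.1 (lmFit and eBayes, two-sided), with Benjamini-Hochberg adjustment over all 14812 genes, a threshold of 0.05 and 95% intervals from the moderated standard error. Genomic spans and promoters are from RefSeq (GRCh38.p14). The span trend was a lowess fit, with a smoother span of 0.3, of each array's deviations on log10 span. Samples with the same replicate number did not deviate together (correlations -0.031, -0.054 and 0.039), so the fit has no replicate block. On simulated data of these 14812 genes the fit recovered 41% of 100 genes changed by 0.5 and 85% of 100 changed by 1 on the log2 scale, with 5 false calls among 131. That simulation changed only these genes, with independent noise and no span trend. Its rates may not hold for the deposited data, where 1245 genes passed.

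The genes, the related lists, the cell type markers and the tests were chosen with earlier results of these data known. The rule for named genes was EGOT, every matrix and adhesion gene past the threshold, the 6 genes listed by name, the brightest and the smallest-p genes of each family, and up to 4 genes past the threshold in each related list; with 16 genes it names all of them. CD68, LYZ and other markers, LOX and LOXL1 to LOXL4 were named beside these.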

Additional observations from a re-analysis of the deposited data

How the results depend on the processing

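Over 14 alternatives HSPG2, NID1 and ICAM1 kept their direction, and they passed in 5, 5 and 8 of them; EGOT kept its direction in all and passed in 12. The number of the 16 genes that fell was 3 under quantile normalization, cyclic loess, the mean of probe sets and a variance trend with a robust prior, and 3 of the 11 that were tested among genes above the median level. It was 1 with the trend on gene span removed and 0 to 1 when an array was left out. With a replicate block 0 of the 16 and 0 of all genes passed by limma, with or without the span trend, and EGOT had adjusted p-values of 0.0543 at -1.76 and 0.0698 at -1.77; at an unadjusted p under 0.05 the block alone gave 5 of the 16 and 3438 genes, where the fit without it gave 7 and 3708. The block takes residual degrees of freedom, and these replicate numbers were not shown to pair samples. VCAM1 was the 1 gene higher with the variance trend. Calls over all genes numbered 2110 among genes above the median level, 2502 with the variance trend and 9 to 579 with an array left out. The share of calls that were higher was 61.8% as deposited, 50.2% after quantile normalization and 48.8% after cyclic loess. The median was -0.11 over the 11 genes above the median level. Over the 16 it was 0.011 with the span trend removed, with or without the replicate block, where that over all genes was 0.065, and -0.11 to -0.050 with an array left out. In 2 further fits chosen after the data were seen, 1 of the 16 fell, ICAM1: with the span trend removed and the median of all genes kept, 657 genes passed and the median over the 16 was -0.019, and with the whole trend subtracted 671 passed and the median was -0.059. CDH23 was at 0.050 and 0.011 in these fits, COL18A1-AS1 at -0.00045 and -0.040 and ITGB1BP2 at -0.038 and -0.078; NID2 was at 0.0070 in the first and COL4A2-AS1 at -0.029 in the other. Signs turned only in genes that did not pass in either fit. CDH26 was at -0.0090 after quantile normalization, -0.0027 after cyclic loess and -0.083 to 0.070 with an array left out. ITGB1BP2 was at -0.00023 after quantile normalization, -0.0082 with the span trend removed and -0.041 to 0.080 with an array left out. With the span trend removed CDH23 was at 0.080 and NID2 at 0.037. With an array left out NID2 ran from -0.14 to 0.10, COL4A2-AS1 from -0.078 to 0.21 and ITGB2-AS1 from -0.27 to 0.025. The causes of these shifts were not tested.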
